A study of Mus musculus with 15 samples.

Results

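The genes described here are mouse genes known for expression at the 2-cell stage of the embryo: the Usp17-like deubiquitinase genes Usp17la, Usp17lb, Usp17lc, Usp17ld and Usp17le, the genes Tdpoz3 and Tdpoz4, the zinc finger gene Zfp352, Tmem92 and the arginase gene Arg2. They were looked up by gene symbol in the platform annotation of the arrays, which listed 9 of the 10 names among 18784 genes, and each of the 9 had 1 probe set. Tdpoz3 was not listed and is not analysed here. The genes were chosen on results of these arrays, taken here to be their changes against scrambled arrays, so the levels of these genes and their changes against scrambled arrays are given as a description, with no test. So are differences between knockdowns, which are built from the same changes. How many of the genes were past the limma threshold is given beside the share of all probe sets, and adjusted p-values are given for other genes.

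Total RNA came from E14TG2a.4 cells, a feeder-independent mouse embryonic stem cell line kept in serum with leukaemia inhibitory factor, and was hybridised to 15 Affymetrix whole-transcript arrays, 3 in each of 5 groups. The Tet1 set held Tet1 shRNA 4, Tet1 shRNA 5 and a scrambled shRNA, and the Sin3A set held a Sin3A shRNA and a scrambled shRNA of its own. All groups, the scrambled ones included, received a hairpin from the lentiviral PLKO.1 vector (a short RNA that lowers the messenger RNA it matches), and the protocol starts puromycin at 2 µg per ml 36 hours after transduction and continues it for 72 hours. Whether the arrays within a group stand for different cultures is not in the labels, so p-values measure the spread between arrays, which may be technical.

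Shortly after fertilisation the mouse embryo switches on its own genome, and a wave of genes, many of them in multicopy families, is transcribed for a brief time around the 2-cell stage. Cultures of embryonic stem cells contain a minor and changing fraction of cells that express part of this programme, called 2-cell-like cells. TET1 oxidises methylated cytosine in DNA, and SIN3A is the core protein of a co-repressor complex with histone deacetylases, found together with TET1 on chromatin. Each array measured a whole culture, so fewer expressing cells and less RNA per cell cannot be told apart.

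The targeted genes were lower in the groups labelled with their hairpins. The Tet1 probe set was 3.43-fold lower with Tet1 shRNA 4 and 4.3-fold lower with Tet1 shRNA 5, and the Sin3a probe set was 2.93-fold lower with the Sin3A shRNA. Each target also moved in the other knockdown. Sin3a had log2 changes of -0.27 and -0.24 with Tet1 shRNA 4 and 5, and Tet1 had 0.31 with the Sin3A shRNA. The r between replicates, over probe sets, was 0.994 to 0.998. The mean log2 value of an array was 7.08 to 7.11 in the Tet1 set and 8.09 in the Sin3A set, so the sets were scaled apart and levels are compared only within a set. All 10 markers of stem cells (among them Pou5f1, Sox2 and Nanog) lay above the median probe set in all 5 groups. Replicate 2 of the scrambled Tet1-set arrays and replicate 2 of Tet1 shRNA 4 stood apart from their groups together (r = 0.517 of their residuals over all probe sets, a description only).

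The 5 Usp17-like genes lie on chromosome 7 and are members of a family. Promoter windows were compared, but transcripts and probes were not. RefSeq promoter windows (250 bases before to 50 after the annotated start, build GRCm38.p6) were given for 4 of the 5 genes, and for Zfp352 and Tdpoz4. The windows of the 4 Usp17-like genes are shown because these genes were lower together and their upstream sequence is itself a copy. Capitals mark the longest run present in all 4.
Usp17la (chr7:104856766-104857065, plus strand): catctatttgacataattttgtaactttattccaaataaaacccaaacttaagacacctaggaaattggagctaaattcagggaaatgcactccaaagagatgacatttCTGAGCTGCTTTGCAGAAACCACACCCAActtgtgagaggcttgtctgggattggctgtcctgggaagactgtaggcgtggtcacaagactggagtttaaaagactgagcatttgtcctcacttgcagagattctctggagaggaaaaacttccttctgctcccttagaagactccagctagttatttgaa
Usp17lb (chr7:104842534-104842833, minus strand): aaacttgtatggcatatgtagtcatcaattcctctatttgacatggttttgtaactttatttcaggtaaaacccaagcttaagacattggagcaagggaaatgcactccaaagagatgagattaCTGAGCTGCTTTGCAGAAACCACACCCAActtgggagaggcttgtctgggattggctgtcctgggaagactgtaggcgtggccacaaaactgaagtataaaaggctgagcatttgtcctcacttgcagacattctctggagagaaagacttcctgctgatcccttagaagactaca
Usp17lc (chr7:103416446-103416745, plus strand): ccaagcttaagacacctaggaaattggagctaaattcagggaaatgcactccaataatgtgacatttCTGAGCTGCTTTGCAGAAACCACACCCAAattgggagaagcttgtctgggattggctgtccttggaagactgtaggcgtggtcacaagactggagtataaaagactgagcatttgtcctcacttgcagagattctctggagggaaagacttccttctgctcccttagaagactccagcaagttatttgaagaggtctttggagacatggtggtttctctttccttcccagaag
Usp17ld (chr7:103252456-103252755, minus strand): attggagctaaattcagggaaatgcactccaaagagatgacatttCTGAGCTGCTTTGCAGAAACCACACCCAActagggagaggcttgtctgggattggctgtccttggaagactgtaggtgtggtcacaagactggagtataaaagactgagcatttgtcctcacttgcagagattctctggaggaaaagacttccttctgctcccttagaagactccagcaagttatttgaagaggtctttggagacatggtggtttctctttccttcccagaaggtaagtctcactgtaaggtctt

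The shared run is 29 bases long and occurs in 4 of 32851 promoter windows, those of these 4 genes. In pairwise alignments the windows were identical at 91.7% to 96.8% of 215 to 278 aligned bases. The windows are poor in the dinucleotide CG, the substrate of DNA methylation in mammals: Usp17la, Usp17lb and Usp17lc have 1 each and Usp17ld has 0, where the median window has 7, and 14.1% of windows have 1 or none. The letters TATAAA, searched on both strands, occur once in the windows of Usp17lb, Usp17lc and Usp17ld and in 13.6% of all windows, and they were not found in the window of Usp17la. CCAAT, on both strands, occurs 2 to 4 times in each of the 4 and at least once in 37.4% of all windows. CACGTG, in 7.15% of all windows, was not found in any of the 6.

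Zfp352 encodes a zinc finger protein of the early embryo, and its window is built differently. It is shown because the gene was lower in all 3 knockdowns while its upstream sequence is a short tandem repeat, whose exact copies of GACAACACACC are in capitals.
Zfp352 (chr4:90218570-90218869, plus strand): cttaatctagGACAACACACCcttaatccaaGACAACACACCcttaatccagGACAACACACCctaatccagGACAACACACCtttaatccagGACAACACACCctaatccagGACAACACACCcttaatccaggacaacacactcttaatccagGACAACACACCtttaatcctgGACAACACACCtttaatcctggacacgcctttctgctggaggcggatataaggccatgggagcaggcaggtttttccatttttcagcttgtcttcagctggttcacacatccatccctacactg
The 11-base run occurs 8 times there, and 3 of all windows contain it. The window has 2 CG dinucleotides, and 23.3% of windows have as few.

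In every comparison with scrambled arrays the mean of each of the 9 genes was lower in the knockdown. With the Sin3A shRNA the log2 changes ran from -1.75 to -0.50 with a median of -1.29. They ran from -0.97 to -0.37 with Tet1 shRNA 4 (median -0.66) and from -1.05 to -0.16 with Tet1 shRNA 5 (median -0.41). The median change over all 21212 probe sets was 0.00627, -0.00318 and -0.00445 in the same order. At a limma adjusted p under 0.05, 8 of the 9 genes were lower with the Sin3A shRNA, where 12.6% of all probe sets were lower by that rule. The count was 6 of 9 with Tet1 shRNA 4, against 4.71% of all probe sets, and 5 of 9 with Tet1 shRNA 5, against 5.46%. The same 5 genes, Usp17lb, Usp17lc, Zfp352, Tmem92 and Arg2, were lower by that rule in all 3 comparisons, as were 1.34% of all probe sets. Both Tet1 comparisons share the 3 scrambled arrays, and Usp17lb was not in the count of 5 for Tet1 shRNA 5 when replicate 1 of the scrambled arrays or of that hairpin was left out. Groups of arrays did not overlap for all 9 genes with the Sin3A shRNA (20.1% of all probe sets, lower), for 6 with Tet1 shRNA 4 (10.9%), for 5 with Tet1 shRNA 5 (11.9%) and for the same 5 in all 3 comparisons (3.09%). Because the genes were chosen with these contrasts known, nothing is read from these shares.

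**Figure D1:**
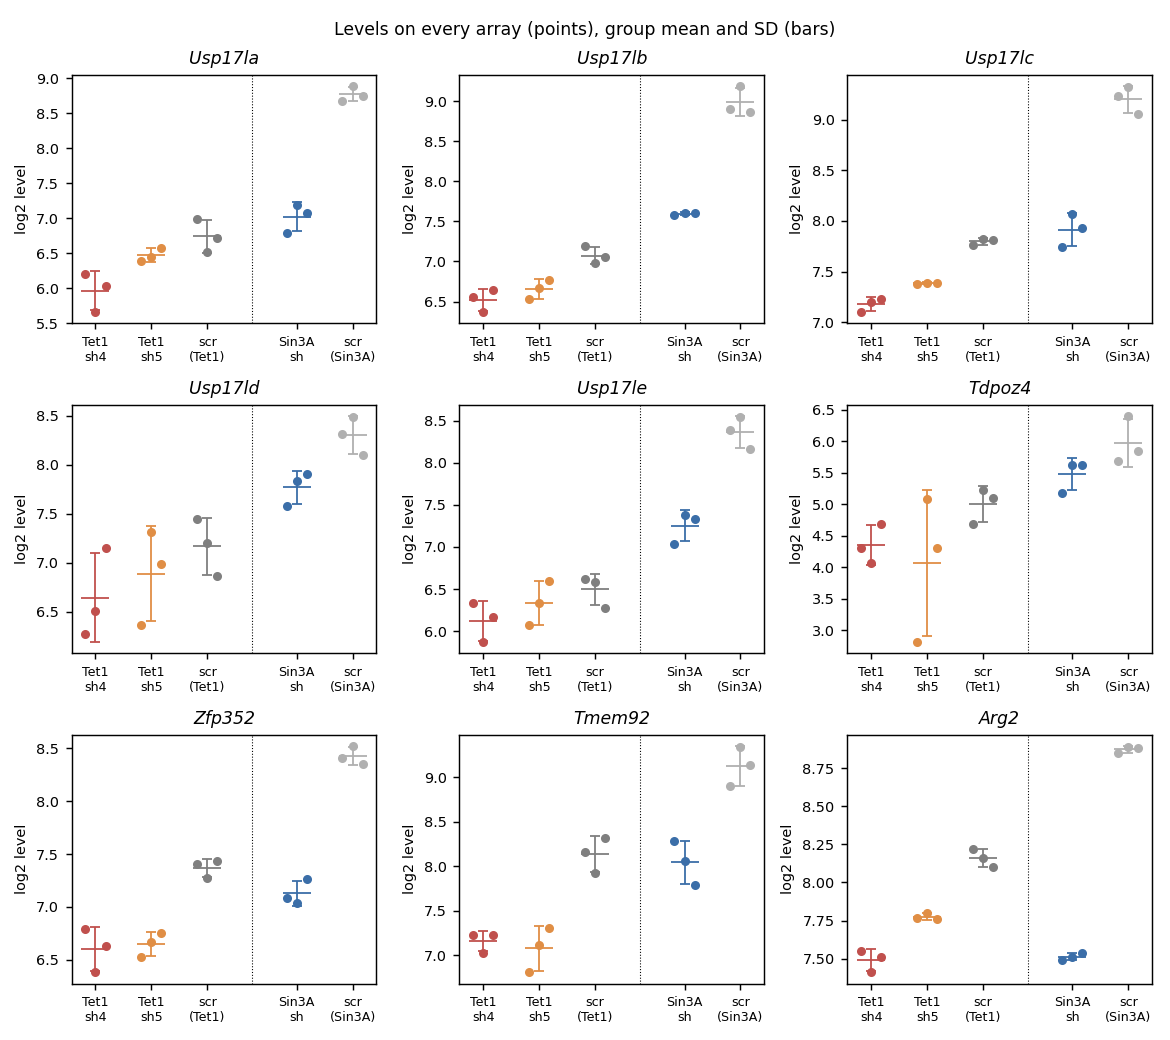
Log2 level (y axis) of the 9 genes on every array (points) with the group mean and SD (bars, 3 arrays a group). The dotted line divides the Tet1 set from the Sin3A set, whose levels are on separate scales. In the Sin3A set every knockdown array lies below every scrambled array for all 9 genes, while in the Tet1 set Usp17ld, Usp17le and Tdpoz4 overlap with the scrambled arrays with both hairpins and Usp17la with shRNA 5.

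Usp17la, first described as the cytokine-induced deubiquitinase gene Dub1, had log2 levels of 6.79, 7.19 and 7.08 on the Sin3A shRNA arrays, against 8.68, 8.89 and 8.75 on scrambled arrays. The groups did not overlap, and the level was 3.37-fold lower with the Sin3A shRNA (log2 change -1.75 ± 0.10, SE, n = 3 arrays each). In the Tet1 set it had 6.20, 5.66 and 6.03 with Tet1 shRNA 4 and 6.39, 6.44 and 6.58 with Tet1 shRNA 5, against 6.99, 6.52 and 6.72 with the scrambled hairpin. All shRNA 4 arrays lay below the scrambled ones, whereas 1 of the shRNA 5 arrays overlapped with them. The log2 changes were -0.78 ± 0.15 and -0.28 ± 0.15, and the second was -0.39 when both arrays that stood apart were left out.

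Usp17lb had 7.58, 7.60 and 7.61 with the Sin3A shRNA, against 8.90, 9.19 and 8.87 with the scrambled hairpin. The 3 knockdown arrays were nearly equal and 2.62-fold lower on average. In the Tet1 set the levels were 6.56, 6.37 and 6.64 with shRNA 4 and 6.53, 6.67 and 6.77 with shRNA 5, against 7.19, 6.98 and 7.05 with scrambled. Neither knockdown overlapped with the scrambled arrays, with log2 changes of -0.55 ± 0.09 and -0.42 ± 0.09.

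Usp17lc, known as Dub2, gave the tightest values of the family in the Tet1 set. It had 7.10, 7.20 and 7.23 with shRNA 4 and 7.38, 7.39 and 7.39 with shRNA 5, against 7.76, 7.82 and 7.81 with scrambled, so that the 3 groups were fully apart. The log2 changes were -0.62 ± 0.06 and -0.41 ± 0.06. In the Sin3A set it had 7.74, 8.07 and 7.93 with the Sin3A shRNA, against 9.23, 9.32 and 9.06 with scrambled, a 2.45-fold lower level.

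Usp17ld and Usp17le varied more between arrays of the Tet1 set. Usp17ld had 6.27, 6.51 and 7.15 with shRNA 4 and 6.36, 7.31 and 6.99 with shRNA 5, against 7.44, 7.20 and 6.86 with scrambled, and all groups overlapped. With the Sin3A shRNA it had 7.58, 7.83 and 7.90, against 8.31, 8.49 and 8.10 with scrambled, a 1.45-fold lower level that was the smallest of the family. Usp17le overlapped with the scrambled arrays in the same way with both Tet1 hairpins, with log2 changes of -0.37 ± 0.16 and -0.16 ± 0.16. In the Sin3A set the Usp17le level was 7.04, 7.38 and 7.33 with the Sin3A shRNA, against 8.39, 8.54 and 8.16 with scrambled, or 2.16-fold lower.

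Since the copies share sequence, their probe sets may measure one another's transcripts, and this was not tested. No value was equal between any of the 10 pairs of Usp17-like probe sets on any array. After group means were removed, the deviations of these pairs correlated with r between 0.50 and 0.97 over the 6 Sin3A-set arrays. Over the 9 Tet1-set arrays they lay between -0.62 and 0.85, and the negative values were those of Usp17lc with Usp17la, Usp17lb and Usp17le. The arrays of a set share their normalization, and these correlations only describe them. For all 36 pairs of the 9 genes the median r was 0.58 in the Sin3A set and 0.43 in the Tet1 set.

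Single arrays carried part of that common variation. Replicate 1 of Tet1 shRNA 5 was the lowest array of its group for 8 of the 9 genes, and replicate 2 of Tet1 shRNA 4 for 7. In the Sin3A set replicate 1 of the Sin3A shRNA was the lowest for 7 genes, and scrambled replicate 2 was the highest of its group for all 9.

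Zfp352 had 7.08, 7.04 and 7.26 with the Sin3A shRNA, against 8.41, 8.52 and 8.35 with scrambled. In the Tet1 set it had 6.79, 6.38 and 6.63 with shRNA 4 and 6.53, 6.67 and 6.75 with shRNA 5, against 7.41, 7.27 and 7.43 with scrambled. No knockdown array reached the lowest scrambled array of its set. The level was 2.46-fold, 1.71-fold and 1.65-fold lower in the same order.

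Tmem92, which encodes a predicted membrane protein, had changes of similar size in all 3 comparisons. Its log2 level was 8.28, 8.06 and 7.79 with the Sin3A shRNA, against 8.90, 9.34 and 9.14 with scrambled (log2 change -1.08 ± 0.14). It had 7.23, 7.03 and 7.23 with Tet1 shRNA 4 and 6.81, 7.12 and 7.31 with Tet1 shRNA 5, against 8.16, 7.92 and 8.32 with scrambled. These were log2 changes of -0.97 ± 0.14 and -1.05 ± 0.14, the largest decreases of the 9 genes with either Tet1 hairpin.

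Arg2 encodes the mitochondrial arginase, which splits arginine into ornithine and urea. It had 7.49, 7.51 and 7.54 with the Sin3A shRNA, against 8.85, 8.89 and 8.88 with scrambled, a 2.56-fold lower level. In the Tet1 set it had 7.55, 7.41 and 7.51 with shRNA 4 and 7.77, 7.80 and 7.76 with shRNA 5, against 8.22, 8.16 and 8.10 with scrambled. All 3 groups of that set were apart, with log2 changes of -0.67 ± 0.06 and -0.38 ± 0.06.

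Tdpoz4 encodes a protein with TRAF and BTB domains, of a family first cloned from early embryos, and its probe set was dim. It lay among the lowest 22.2% of probe sets on every array and among the lowest 1.17% on replicate 1 of Tet1 shRNA 5. It had 4.30, 4.06 and 4.69 with Tet1 shRNA 4 and 2.81, 5.09 and 4.30 with Tet1 shRNA 5, against 4.69, 5.23 and 5.10 with scrambled. The group means were lower, but the arrays overlapped (scrambled replicate 1 lay at or below the highest array of either knockdown). The log2 change with shRNA 5 was -0.94 ± 0.46, and it was -0.31 without replicate 1 and -1.46 without replicate 2 of that hairpin. In the Sin3A set it had 5.18, 5.62 and 5.62 with the Sin3A shRNA, against 5.68, 6.40 and 5.84 with scrambled (-0.50 ± 0.19).

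**Figure D2:**
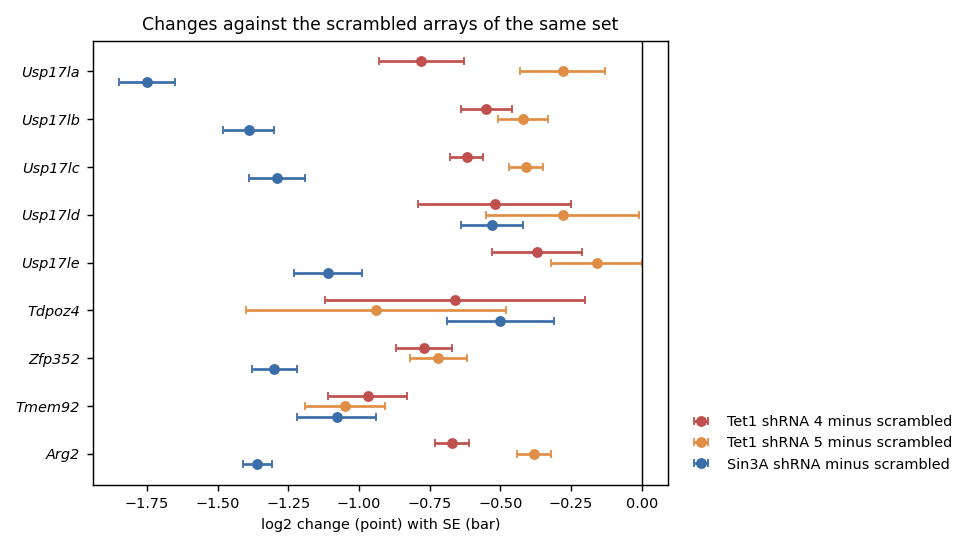
Log2 change against the scrambled arrays of the same set (x axis, points) with its SE (bars) for each of the 9 genes and 3 hairpins. All points lie below 0. The Sin3A values lie farthest from 0 for Usp17la, Usp17lb, Usp17lc, Usp17le, Zfp352 and Arg2, whereas those of Tmem92 and Usp17ld lie close to their values with Tet1 shRNA 4.

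The mean effect of both Tet1 hairpins minus the effect of the Sin3A hairpin was estimated in 1 fit of all 15 arrays, with each effect taken within its own set. It is built from the changes the genes were chosen on, so it is given as a description for them. A positive difference means a smaller decrease with the Tet1 hairpins. The differences were 1.22 ± 0.19 for Usp17la, 0.91 ± 0.13 for Usp17lb, 0.77 ± 0.11 for Usp17lc and 0.85 ± 0.20 for Usp17le (SE). They were 0.56 ± 0.13 for Zfp352 and 0.83 ± 0.07 for Arg2. These 6 were past the limma threshold, as were 11.3% of all probe sets in that direction, and nothing is read from the share. The differences of Usp17ld (0.13 ± 0.32), Tmem92 (0.07 ± 0.20) and Tdpoz4 (-0.30 ± 0.54) were smaller than their standard errors. Whether the separate scale of the sets bears on the size of the effects was not tested.

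The Tet1 hairpins could also be set against each other. All 5 Usp17-like genes had higher means with shRNA 5 than with shRNA 4, by 0.13 to 0.51 on the log2 scale, and Arg2 by 0.29, while the difference for Tet1 itself was -0.33. Of the 9 genes 0 were past the limma threshold, where 0.141% of all probe sets were. At an unadjusted limma p under 0.05 there were 3 of the 9, and 8.66% of all probe sets. These differences too come from arrays the genes were chosen on. The arrays did not overlap for Usp17la, Usp17lc and Arg2, all higher with shRNA 5, as for 8.07% of all probe sets. For Zfp352 the difference was 0.05 ± 0.10 and for Tmem92 -0.08 ± 0.14.

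The genes around the Usp17-like genes were examined next, since the family is spread among olfactory receptor genes. In RefSeq gene order (GRCm38.p6, used for order only) the outermost Usp17-like genes enclose 81 other protein-coding genes, of which 61 are olfactory receptor genes. Of the 72 on the array, 0 passed the limma threshold with Tet1 shRNA 4, Tet1 shRNA 5 or the Sin3A shRNA, where 11.6%, 13.8% and 24.8% of all probe sets passed. An unadjusted p under 0.05 was found for 1, 5 and 6 of the 72, and for 23.3%, 25.7% and 36% of all probe sets. Their changes ran from -0.51 to 0.24 with shRNA 4, from -0.88 to 0.41 with shRNA 5 and from -0.42 to 0.30 with the Sin3A shRNA. These neighbours were mostly dim, with 1 of 72 above the median probe set in the scrambled Tet1 group and 2 of 72 in the scrambled Sin3A group. All 5 Usp17-like genes lay above it in the scrambled Sin3A group and 3 of 5 in the scrambled Tet1 group. Directly beside Usp17la, Usp17lb and Usp17le, which follow each other, the measured neighbours Olfr663 and Olfr665 had changes of -0.20 to 0.17 over the 3 comparisons, and none passed.

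**Figure D3:**
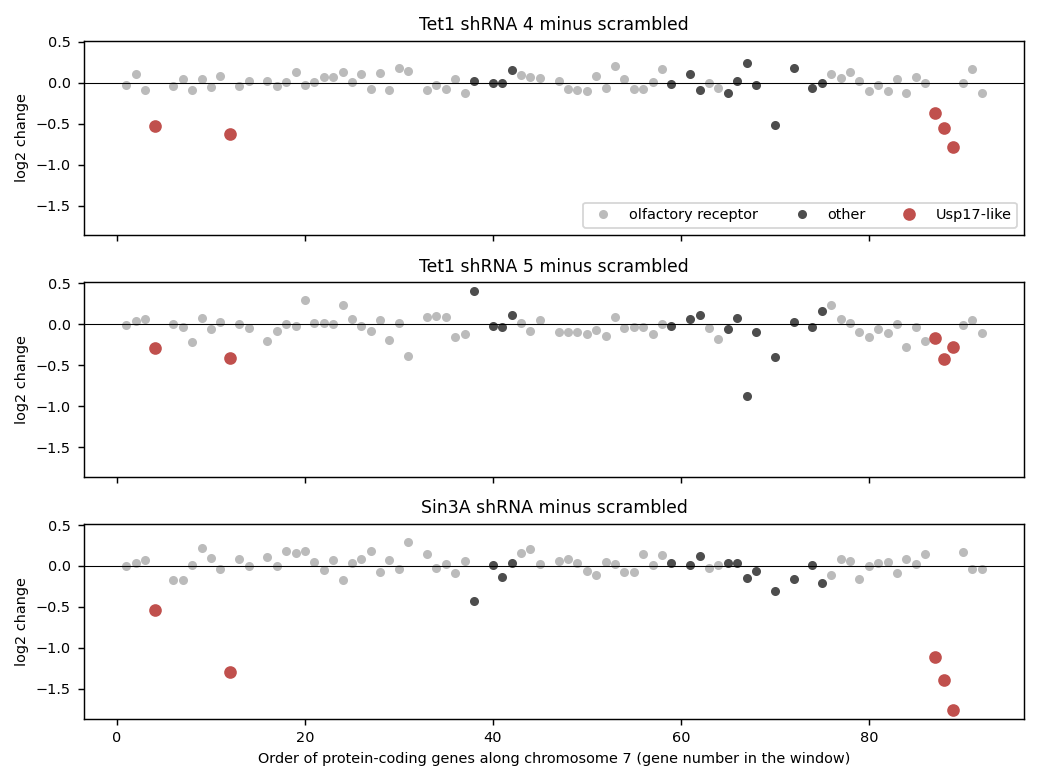
Log2 change (y axis) of measured protein-coding genes against their order along chromosome 7 (x axis, gene number in a window that ends 3 genes beyond the outermost Usp17-like genes), 1 panel for each hairpin. With the Sin3A shRNA the 5 Usp17-like genes (red) lie below every olfactory receptor gene (light grey) and other gene (dark grey) between them. With the Tet1 hairpins they overlap with the lowest of the others, which reach -0.51 and -0.88. The Usp17-like genes were chosen on these changes and the others were mostly dim, so nothing is read from the gap.

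Neighbours of the other genes were mixed. Pigh, the measured gene before Arg2 on chromosome 12, rose with both Tet1 hairpins (0.65 and 0.55, limma adjusted p = 0.0016 and 0.0037) and fell by 0.40 with the Sin3A shRNA (0.0028), while Vti1b after it rose with the Sin3A shRNA (0.30, limma adjusted p = 0.005). On chromosome 11 Gm11545, next to Tmem92, fell by 0.86 with the Sin3A shRNA (limma adjusted p = 0.00036) and by 0.35 with Tet1 shRNA 5 (0.045), and its value of -0.26 with shRNA 4 did not pass. Dmrta1 beside Zfp352 rose by 0.20 with the Sin3A shRNA (limma adjusted p = 0.043), and Elavl2 on its other side fell by 0.37 with Tet1 shRNA 5 (0.042). Them4, the measured gene after Tdpoz4 on chromosome 3, fell by 0.23 with the Sin3A shRNA (limma adjusted p = 0.041), and Col1a1 after Tmem92 did not pass in any comparison.

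Other genes of the 2-cell-like programme were taken from a list of 42 symbols, of which 8 were matched outside the genes above. Like the other lists here, this list was chosen with earlier results of these data known. Its counts and p-values are therefore no independent support. The Zscan4 and Tcstv families were not among those matched and are not analysed here. With both Tet1 hairpins 2 of the 8 fell and 0 rose, where 3.4% of all probe sets fell with both and 5.4% rose. With the Sin3A shRNA 4 fell and 0 rose, where 12.6% of all probe sets fell and 12.2% rose. Pramel19, a Prame-family gene, fell with Tet1 shRNA 4, Tet1 shRNA 5 and the Sin3A shRNA (-1.87, -1.60 and -1.79, limma adjusted p = 0.00027, 0.00063 and 4.5e-05). Its level was 8.27 ± 0.42 and 8.53 ± 0.12 with the Tet1 hairpins, against 10.14 ± 0.27 with scrambled (SD, n = 3 each). Gm5039 fell in the same comparisons (-0.84, -0.76 and -1.11, limma adjusted p = 0.012, 0.017 and 0.00047).

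The rest of that list changed less. Tdpoz2, a relative of Tdpoz4, fell by 0.31 with the Sin3A shRNA (limma adjusted p = 0.013), and its values of -0.24 and -0.12 with the Tet1 hairpins did not pass. Pramel17 fell by 0.34 with the Sin3A shRNA (limma adjusted p = 0.012). Pramel12 fell by 0.39 with Tet1 shRNA 4 (limma adjusted p = 0.013) and had values of -0.08 with shRNA 5 and 0.24 with the Sin3A shRNA that did not pass. Tdpoz1 had changes of 0.01, -0.02 and 0.06, the interferon-inducible nuclear body gene Sp110 had -0.24, -0.23 and -0.23, and the bHLH-zip factor gene Spz1 had -0.14, -0.28 and -0.11, and none of these passed. Over the 8 genes the median log2 change was -0.24, -0.17 and -0.27, against medians of all probe sets of -0.003, -0.004 and 0.006.

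Factors known to act on the 2-cell-like state were examined as background to these genes. Of 6 measured activators 1 rose and 0 fell with both Tet1 hairpins, where 5.4% of all probe sets rose with both and 3.4% fell. With the Sin3A shRNA 0 rose and 1 fell, where 12.2% of all probe sets rose and 12.6% fell. The one that rose was Nr5a2, a nuclear receptor of genome activation (0.30 and 0.40, limma adjusted p = 0.0085 and 0.0017). Nelfa, a subunit of the negative elongation factor, fell by 0.22 with the Sin3A shRNA (limma adjusted p = 0.015). Dppa2 and Dppa4, which act upstream of the programme, did not pass in any comparison. With Tet1 shRNA 4, Tet1 shRNA 5 and the Sin3A shRNA their changes were -0.11, -0.03 and -0.02 for Dppa2 and -0.48, -0.39 and -0.01 for Dppa4.

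Of 29 measured repressors of the state 0 rose and 3 fell with both Tet1 hairpins, where 5.4% of all probe sets rose and 3.4% fell. With the Sin3A shRNA 3 rose and 4 fell, where 12.2% of all probe sets rose and 12.6% fell. Lin28a, an RNA-binding protein gene, fell with both Tet1 hairpins (-0.42 and -0.24), as did Zmym2 (-0.36 and -0.30) and the histone methyltransferase gene Ehmt1 (-0.24 and -0.23, limma adjusted p from 0.001 to 0.045 for these 3). With the Sin3A shRNA the chromatin assembly gene Chaf1b rose by 0.41, the maintenance methyltransferase gene Dnmt1 by 0.25 and Ehmt2 by 0.19. Mga (-0.29) and Pcgf6 (-0.20), both of a variant Polycomb complex, and the acetyltransferase gene Kat5 (-0.24) fell with it (limma adjusted p from 0.0013 to 0.023 for these 6).

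Other deubiquitinase genes changed in both directions. Of 49 other genes named Usp followed by a number, 2 rose and 6 fell with both Tet1 hairpins, and 13 rose and 8 fell with the Sin3A shRNA. Of all probe sets 5.4% rose and 3.4% fell with both Tet1 hairpins, and 12.2% rose and 12.6% fell with the Sin3A shRNA. The median change of the 49 was -0.01 and -0.05 with the Tet1 hairpins and 0.04 with the Sin3A shRNA. Usp26, an X-linked gene known for its expression in testis, fell with both Tet1 hairpins and the Sin3A shRNA (-1.07, -1.21 and -0.55, limma adjusted p = 0.0013, 0.00063 and 0.013). Usp36, which acts in the nucleolus, also fell in all 3 comparisons (-0.43, -0.32 and -0.27). Usp25 fell with the Tet1 hairpins (-0.59 and -0.63) and rose by 0.56 with the Sin3A shRNA, and its effects differed (-1.17 ± 0.14, limma adjusted p = 3e-05). Usp46 rose in all 3 comparisons (0.69, 0.56 and 0.43), while Usp13 rose with the Tet1 hairpins (0.30 and 0.23) and fell with the Sin3A shRNA (-0.27). With the Sin3A shRNA Usp51 rose by 1.11 and Usp12 by 0.45, and Usp11 fell by 0.81 (limma adjusted p = 0.00032, 0.004 and 0.00095).

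Among 28 genes of arginine, ornithine and polyamine metabolism, 4 rose and 1 fell with both Tet1 hairpins, and 5 rose and 5 fell with the Sin3A shRNA, against the same shares of all probe sets (5.4% and 3.4%, then 12.2% and 12.6%). Oat, which uses the ornithine that arginase makes, rose by 1.07 and 1.14 with the Tet1 hairpins (limma adjusted p = 1.8e-05 and 1.5e-05) and had a change of 0.04 with the Sin3A shRNA. The ornithine transporter gene Slc25a15 rose in all 3 comparisons (0.40, 0.64 and 0.29), as did the nitric oxide synthase gene Nos1 (0.76, 0.72 and 0.30). Asl, which makes arginine, rose by 0.81 with the Sin3A shRNA (limma adjusted p = 7.6e-05), and the spermine synthase gene Sms fell in all 3 comparisons (-0.52, -0.41 and -0.50). Gatm, a gene of creatine synthesis, fell with Tet1 shRNA 4 and the Sin3A shRNA (-0.51 and -0.70), and Aldh18a1, of proline and ornithine synthesis, fell with the Sin3A shRNA (-0.38). In the Tet1 set Arg2 was lower where Oat rose. A list drawn up around the Tdpoz genes held 6 measured genes: Spop, Spopl, Cul3, Rbx1 and, already described above, Tdpoz1 and Tdpoz2. Of these 6, 0 passed with either Tet1 hairpin and 1, Tdpoz2, fell with the Sin3A shRNA. Of all probe sets 11.6% and 13.8% passed with Tet1 shRNA 4 and 5, and 12.6% fell with the Sin3A shRNA.

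**Figure D4:**
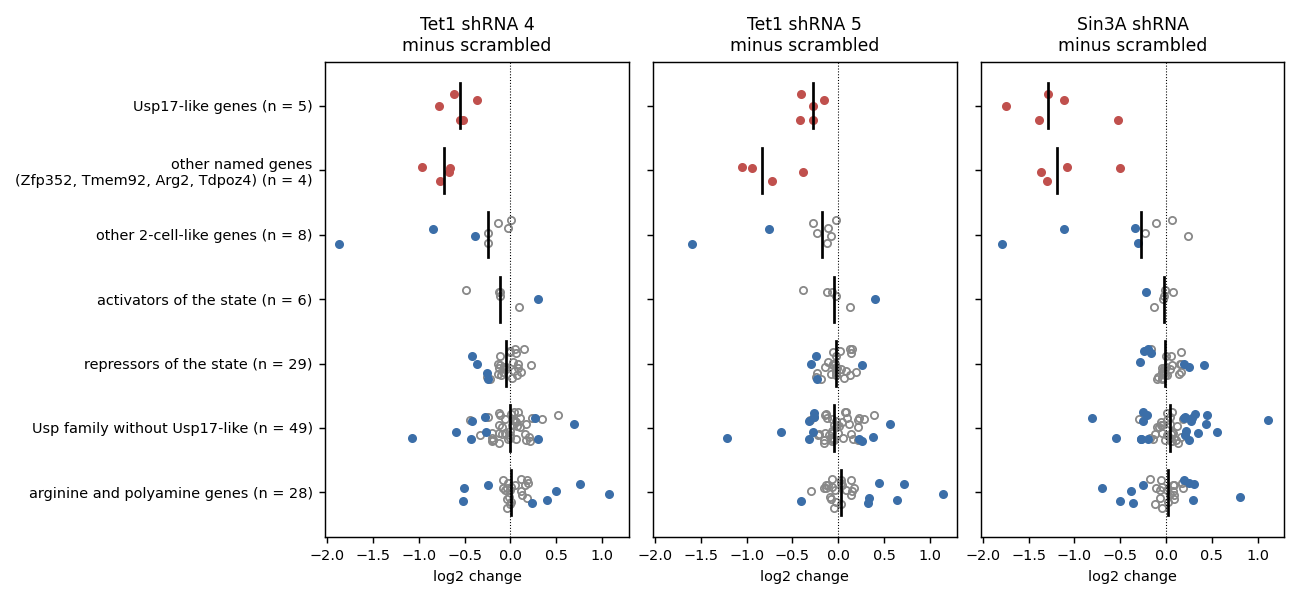
Log2 change (x axis) against scrambled arrays for the described genes (red) and 5 lists (y axis), 1 panel for each hairpin. In the lists, filled blue points passed a limma adjusted p under 0.05 and open points did not, no such distinction is made for the red points, and black bars are medians. The medians of the red groups lie between -1.29 and -0.28, and those of the 5 lists between -0.27 and 0.04. The red genes were chosen on these changes, so nothing is read from that contrast.

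Markers of stem cells and of other cell types were followed by the mean log2 level of each list and by single genes. The mean log2 level of the 10 stem cell markers was 11.98 to 12.01 with Tet1 shRNA 4 and 11.91 to 11.95 with Tet1 shRNA 5, against 11.86 to 11.94 with scrambled. It was 12.41 to 12.44 with the Sin3A shRNA, against 12.36 to 12.39 with scrambled. Of these 10, 2 rose and 0 fell with both Tet1 hairpins (5.4% and 3.4% of all probe sets). With the Sin3A shRNA 1 rose and 1 fell (12.2% and 12.6%). Klf4 rose in all 3 comparisons (0.47, 0.27 and 0.41). Tdgf1 rose with the Tet1 hairpins (0.23 and 0.20), and Nanog fell with the Sin3A shRNA (-0.27). The 11 trophectoderm markers averaged 7.25 to 7.30 and 7.31 to 7.34 with the Tet1 hairpins, against 7.32 to 7.49, and 8.40 to 8.44 with the Sin3A shRNA, against 8.63 to 8.70. Of these 11, 3 rose and 4 fell with both Tet1 hairpins, and 2 rose and 5 fell with the Sin3A shRNA, where 5.4% and 3.4% of all probe sets rose and fell with both Tet1 hairpins and 12.2% and 12.6% with the Sin3A shRNA. Krt8 (-1.40, -1.39 and -1.01), Krt18 (-1.03, -0.92 and -0.70) and Tfap2c (-0.71, -0.63 and -0.62) fell with Tet1 shRNA 4, Tet1 shRNA 5 and the Sin3A shRNA. Eomes (1.28, 1.40 and 0.31) and Tead4 (0.63, 0.39 and 0.48) rose in all 3, and Gata3 rose with the Tet1 hairpins (0.36 and 0.57) and fell with the Sin3A shRNA (-0.42). The 14 fibroblast markers, of which 3 to 6 lay above the median probe set, averaged 5.98 to 6.10 and 5.97 to 6.09 with the Tet1 hairpins, against 5.92 to 6.11, and 6.96 to 7.08 with the Sin3A shRNA, against 7.06 to 7.15, and 1 rose and 0 fell with both Tet1 hairpins and 1 rose and 2 fell with the Sin3A shRNA. The 10 primitive endoderm markers averaged 7.14 to 7.22 and 7.12 to 7.18 with the Tet1 hairpins, against 6.86 to 7.08, and 8.08 to 8.12 with the Sin3A shRNA, against 8.02 to 8.07, and 2 rose and 0 fell with both Tet1 hairpins and 2 rose and 1 fell with the Sin3A shRNA. Of the fibroblast markers, Thy1 rose with the Tet1 hairpins (0.82 and 0.81) and fell with the Sin3A shRNA (-0.23). With the Sin3A shRNA Pdgfrb fell (-0.58) and Col5a1 rose (0.24). Of the primitive endoderm markers, Sox7 (0.80, 0.83 and 0.45) and Lama1 (0.59, 0.53 and 0.81) rose in all 3 comparisons. Dab2 fell with Tet1 shRNA 5 and the Sin3A shRNA (-0.41 and -0.86), and its value of -0.28 with Tet1 shRNA 4 did not pass. The part of these shifts in the decrease of the 2-cell-like genes was not tested.

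The genes whose pattern was most like that of the described ones were sought among 18139 genes, by Pearson's r over the 15 arrays after the scrambled mean of each set was subtracted. Group differences dominate these values, which are a description only. Tdrd12, a Tudor-domain gene of the piRNA pathway, was closest to Zfp352 (r = 0.987, with changes of -0.77, -0.82 and -1.32), followed by the meiotic gene Mei4 (0.976). Pramel19 was closest to Tmem92 (r = 0.956). Glod5 was among the 3 closest genes of Usp17la, Usp17lb, Usp17lc and Arg2 (r = 0.969 to 0.977, with changes of -0.43, -0.25 and -0.90), and the mitochondrial carrier gene Slc25a12 was the closest of Arg2 (0.988). For Usp17ld and Tdpoz4 no gene reached an r above 0.826.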

How the data were processed

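Total RNA of 15 arrays in 5 groups of 3 was measured on Affymetrix arrays. The deposited values are log2 expression per probe set, read from 1 table that holds all 15 arrays. The submitters' processing notes name affy, RMA and limma, with no versions. No build is named in the files. The table was used as deposited, and ties between arrays occurred in 49.1% of probe sets of the Tet1 set. Genes were named through the platform annotation and RefSeq tables (GRCm38.p6), and 18786 of 21212 probe sets had 1 symbol, 6 several and 2420 none.

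Group means were fitted with limma 3.58.1 (R 4.3.3, lmFit and eBayes) over all probe sets, on the 9 arrays of the Tet1 set, the 6 of the Sin3A set, and all 15 for the difference between knockdown effects. P-values were two-sided and adjusted by Benjamini and Hochberg, counting every probe set, and 0.05 was the threshold. The fits were tested on simulated data. The number of arrays limits the precision. Errors of changes are limma's moderated standard errors, and those of levels are SDs. Promoter windows were aligned in pairs with Biopython 1.88.

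The genes and lists were chosen with earlier results of these data known. Named from each list are up to 3 genes with the highest and 3 with the lowest changes among those that passed for both Tet1 hairpins or for the Sin3A shRNA, and all matched other 2-cell-like genes. Dppa2, Dppa4, Spop, Spopl, Cul3, Rbx1 and the chromosomal neighbours were named outside that rule, after their values were seen. Replicate numbers were not taken as pairing the arrays, because deviations of same-numbered arrays correlated with r from -0.287 to 0.517 and exceeded 0.1 in 3 of 12 pairs. Other scalings, a variance trend, a filter on dim probe sets, fewer groups in the fit, a replicate block and left-out arrays were tried.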

Additional observations from a re-analysis of the deposited data

Results flagged for a closer look

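For 6 of the 9 genes the effects of the Tet1 and Sin3A hairpins differed past the limma threshold in the fit of all 15 arrays. Of all probe sets 11.3% were past it in the same direction, and nothing is read from the share. The mean Tet1 effect minus the Sin3A effect was 1.22 on the log2 scale for Usp17la, 0.91 for Usp17lb, 0.77 for Usp17lc, 0.85 for Usp17le, 0.56 for Zfp352 and 0.83 for Arg2. These differences are built from the changes against scrambled arrays on which the genes were chosen, so they are no independent test. The means of the 6 genes lay below scrambled with each hairpin, although Usp17le with both Tet1 hairpins and Usp17la with Tet1 shRNA 5 overlapped with the scrambled arrays. The sets were scaled apart, and the part of that in the difference was not tested.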

How the results depend on the processing

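No gene changed direction against scrambled arrays under any alternative run. Places against the limma threshold describe these genes and are no test. Of the 9 genes, 6 were past it with Tet1 shRNA 4 and 6 in the difference between effects under each alternative that could be fitted. As deposited, 4.71% of all probe sets were lower with Tet1 shRNA 4 by that rule and 11.3% had a higher difference. With Tet1 shRNA 5, Usp17lb was no longer past it without scrambled replicate 1 (-0.36) or replicate 1 of the hairpin (-0.36), while Usp17la was past it without both arrays that stood apart (-0.39) and Tdpoz4 without replicate 2 of the hairpin (-1.46). With a replicate block Tdpoz4 was also past it with the Sin3A shRNA (-0.50), and the block moved no other gene of the 9 across it.

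Between the Tet1 hairpins 30 probe sets passed in all. The count was 48 with an intensity trend, 61 without the dimmest 25% of probe sets, 0 with only the 2 groups in the fit, 0 with the replicate block, 1 without both arrays that stood apart, and 0 to 36 with 1 array left out. The share of calls that were higher there was 40% as deposited, 51.6% with centred arrays and 33.3% after quantile normalization. With the Sin3A shRNA the count was 3359 to 4944 with 1 array left out, against 5261, and the lowest was without Sin3A shRNA replicate 2.

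Some small differences changed sign. Between the hairpins, leaving out 1 array gave -0.80 to 0.34 for Tdpoz4, -0.1949 to 0.05338 for Tmem92 and -0.05809 to 0.1429 for Zfp352, which was -0.05809 without both arrays that stood apart. In the difference between effects the ranges were -0.5566 to 0.01387 for Tdpoz4, -0.05268 to 0.1901 for Tmem92 and -0.02505 to 0.2647 for Usp17ld. The cause was not tested. Each gene had 1 probe set, so no other probe set could be tried, and Tdpoz4 was too dim to remain after the filter.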
